A study of Mus musculus with 12 samples.

Results

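The Hox genes, the homeobox transcription factors that mark position along the body axis, were followed in mouse spinal cord by every probe set of an expression array whose only annotated gene is one of the Hox clusters a to d. The rule used the gene symbol alone and no signal, and it gave 37 of the array's 22690 probe sets. They cover 31 of the 39 Hox genes of the mouse reference: 9 of cluster a, 9 of cluster b, 6 of cluster c and 7 of cluster d. A further 3 probe sets carry 2 Hox symbols each and were left out. The study compared 3 groups of 4 mice, each with its own array, all killed at the age of 13 days. Every mouse came from line 4299 of the SMA model, on an FVB background with the mouse allele Smn1tm1Msd, and carried 2 transgenes: human SMN2, as Tg(SMN2)89Ahmb, and SmnΔ7, as Tg(SMN2*delta7)4299Ahmb (SMN2+/+, SmnΔ7+/+). The group called wildtype was mSmn+/-, so it had a single intact mouse Smn allele, and received vehicle. The SMA vehicle group, whose labels call it untreated as they do the wildtype group, was mSmn -/- and received vehicle. The SMA ceftriaxone group was mSmn -/- and was injected intraperitoneally with ceftriaxone, a beta-lactam antibiotic, at 200 mg/kg each day from day 5. The labels speak both of whole cords and of lumbar segments, and do not state which segments each RNA sample held or which mice were female. The comparisons ask what loss of mouse Smn, which causes spinal muscular atrophy (SMA), a disease of motor neurons, does to cord RNA, and what ceftriaxone does in SMA mice.

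Hox genes lie in 4 clusters, and their order along the chromosome matches the order of their expression along the body: low paralog numbers start in the hindbrain and neck, middle numbers at forelimb and thoracic levels, and high numbers at lumbar, sacral and tail levels. In the spinal cord the Hox proteins set the columns and pools of motor neurons: Hoxc6 marks forelimb levels, Hoxc9 thoracic levels and Hoxd10 lumbar levels. They bind DNA together with cofactors of the Pbx, Meis and Pknox families. Retinoic acid opens the 3′ end of the clusters in the embryo, Cdx factors act on the middle and 5′ genes, and Polycomb and trithorax proteins hold the silent and the active state.

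Genes of cluster d moved in opposite directions between the groups, among them the neighbours Hoxd9 and Hoxd8. The 250 bases before the start of 4 genes of this cluster are therefore shown, from RefSeq, build GRCm38.p6. Hoxd10 and Hoxd9 were higher and Hoxd8 and Hoxd1 lower in SMA vehicle cords. Capitals mark AGGTCA on either strand, the element bound by nuclear receptors, among them those for retinoic acid.
Hoxd10, chr2:74691641-74691890, plus strand: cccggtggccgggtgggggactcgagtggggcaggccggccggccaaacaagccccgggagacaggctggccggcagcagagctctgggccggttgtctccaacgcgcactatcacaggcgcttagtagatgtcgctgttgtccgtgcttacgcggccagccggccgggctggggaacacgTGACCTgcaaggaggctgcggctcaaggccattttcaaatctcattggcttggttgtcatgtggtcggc
Hoxd9, chr2:74697513-74697762, plus strand: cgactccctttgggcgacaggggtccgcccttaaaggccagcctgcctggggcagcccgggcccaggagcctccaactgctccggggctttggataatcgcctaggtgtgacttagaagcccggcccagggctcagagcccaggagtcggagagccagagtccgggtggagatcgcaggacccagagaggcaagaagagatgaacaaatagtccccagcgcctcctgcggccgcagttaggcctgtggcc
Hoxd8, chr2:74704365-74704614, plus strand: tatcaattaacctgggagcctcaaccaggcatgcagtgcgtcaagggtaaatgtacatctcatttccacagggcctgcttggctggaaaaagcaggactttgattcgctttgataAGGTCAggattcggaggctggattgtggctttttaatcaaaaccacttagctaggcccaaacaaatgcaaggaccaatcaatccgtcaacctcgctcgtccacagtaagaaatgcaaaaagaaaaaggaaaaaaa
Hoxd1, chr2:74762730-74762979, plus strand: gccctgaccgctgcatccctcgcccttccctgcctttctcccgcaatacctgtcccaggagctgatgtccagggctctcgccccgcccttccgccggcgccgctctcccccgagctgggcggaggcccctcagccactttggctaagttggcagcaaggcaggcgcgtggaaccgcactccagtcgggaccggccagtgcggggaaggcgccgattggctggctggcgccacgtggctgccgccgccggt
It stood once in the Hoxd10 window and once in the Hoxd8 window, that is in a gene that rose and in a gene that fell. Of 32851 promoter windows of this length, 14% held it, as did 6 of 24 windows of the 22 Hox genes with an entry. The letters TGATNNAT, a composite of Pbx and Hox proteins, stood in 7.7% of all windows and in 4 of the 24, and TTTATG, bound by posterior Hox proteins and Cdx factors, in 10.8% and in 5 of the 24. Both strands were searched and each motif was counted on its own, although TGATNNAT and TTTATG can share letters. Neither of these was found in the 4 windows shown. CG pairs numbered 20 in the Hoxd10 window, 13 in Hoxd9, 6 in Hoxd8 and 24 in Hoxd1, against a median of 6 over all windows and of 12.5 over the Hox windows. Both the highest and the lowest of these 4 numbers thus belong to a gene that fell.

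The arrays matched their labels for the deleted gene: Smn1 read 313 ± 70.1 (SD, n = 4) on the wildtype arrays, 7.28 ± 5.85 on those of SMA ceftriaxone and 4.22 ± 0.991 on those of SMA vehicle. Array 2 of the wildtype group stood apart. It correlated at 0.945 to 0.948 with the other wildtype arrays, which correlated at 0.986 to 0.988 with each other, and it alone read the T cell gene Rag1 at 7862.5. Xist, the RNA of the inactive X chromosome, exceeded a signal of 1000 on all 4 ceftriaxone arrays, on 2 of SMA vehicle and on 1 of wildtype, so the sexes were not balanced over the groups. Spinal cord identity was checked on 12 probe sets of 7 defining genes, among them Slc5a7, Slc6a5 and Mnx1, which averaged 213, 79.6 and 55.4 in wildtype. Of these 12, 3 rose and none fell in SMA vehicle against wildtype (25%, where 31.3% of all probe sets were called), 2 of Lbx1 and 1 of Isl1. In ceftriaxone against vehicle 5 were lower and none higher (41.7%, where 22.4% of all were called). Their summed signal was 1671 to 2784 on the wildtype arrays, 2771 to 3789 on those of SMA vehicle and 1932 to 2043 after ceftriaxone. These sums moved in the same direction as most of the Hox values below, and their part in them was not tested. The ratio of 3′ to 5′ Gapdh signal lay between 0.72 and 0.761 on all 12 arrays. In bulk tissue, fewer cells of a type and less RNA per cell cannot be told apart.

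In the comparison of SMA vehicle against wildtype, Hox RNA was mostly higher in the SMA vehicle cords. Of 37 Hox probe sets, 13 rose, 2 fell and 22 did not pass an adjusted p of 0.05, and 32 of the 37 estimates were positive. The 13 that rose belong to 12 genes: Hoxa7, Hoxa9, Hoxa10, Hoxb2, Hoxb3, Hoxb6, Hoxb9, Hoxc8, Hoxc9, Hoxd9, Hoxd10 and Hoxd11. Hoxd1 and Hoxd8 fell. The 15 calls are 40.5% of the Hox probe sets, where 31.3% of all 22626 probe sets tested were called. By direction, 16.5% of all probe sets rose and 14.8% fell. The median Hox log2 fold change was 0.35, where the median over all probe sets was -0.02. With quantile normalization it was 0.39 and with median centring 0.39, where the medians over all probe sets were 0.01 and 0.03. Fold changes are on the scale of log2(signal + 16), which understates the change of dim genes.

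**Figure D1:**
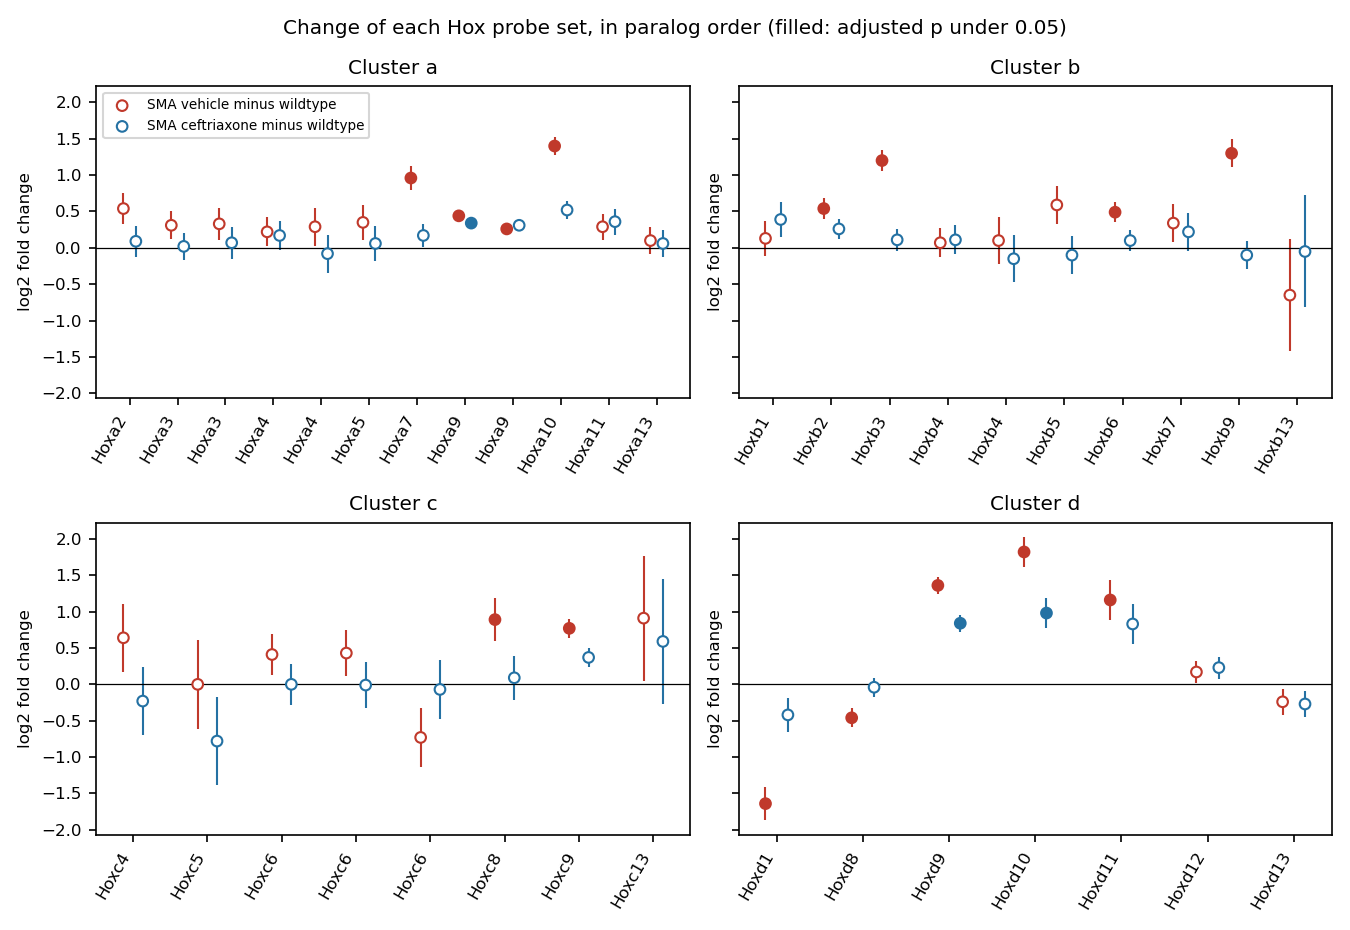
Log2 fold change, on the scale of log2(signal + 16), of each Hox probe set in SMA vehicle (red) and SMA ceftriaxone (blue) against wildtype, 1 panel per cluster, with genes from low to high paralog number; bars are 1 standard error and filled points have an adjusted p under 0.05. The 5 probe sets of paralog 9 and both of paralog 10 are filled and above 0 for SMA vehicle, and Hoxd1 is the lowest point at -1.64.

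Calls were more frequent among the brighter probe sets. Of the 20 Hox probe sets whose mean log2 value lay above the 40th percentile of the array (7.14, a geometric mean signal of 125), 14 were called, which is 70%, where 43.9% of all such probe sets were. Of the 17 dimmer ones, 1 was called, Hoxd1 (5.88%). The share over all dimmer probe sets was not computed. Over the 7 probe sets of paralogs 1 to 3, 2 rose and 1 fell, and the median log2 fold change was 0.33. Over the 16 of paralogs 4 to 8, 3 rose and 1 fell, with a median of 0.35. Over the 14 of paralogs 9 to 13, 8 rose and none fell, with a median of 0.60. The brighter probe sets were 2 of 7, 9 of 16 and 9 of 14 in these bands, so the band medians mix bright and dim members unevenly. Within the last band the rises were at paralogs 9 to 11, while the single probe set of paralog 12 and the 4 of paralog 13 were not called. By cluster, 4 of 12 probe sets rose in a, 4 of 10 in b, 2 of 8 in c and 3 of 7 in d, where another 2 fell. The called share was 33.3% in cluster a, 40% in b, 25% in c and 71.4% in d. Over paralogs 1 to 3, 4 to 8 and 9 to 13 it was 42.9%, 25% and 57.1%. Of all probe sets tested 31.3% were called, so clusters a and c and paralogs 4 to 8 were near or below that share.

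Cluster d held both the largest rise and the largest fall among the Hox probe sets. Hoxd10, a lumbar gene that directs motor neurons of the hindlimb, read 590.3, 768.4, 456.7 and 386.4 in wildtype, 1538.2, 2411.1, 1968.5 and 1839.6 in SMA vehicle and 804.5, 1036.9, 1274.2 and 1219 in SMA cords after ceftriaxone. Every SMA vehicle array lay above every array of the other groups, and every ceftriaxone array above every wildtype array. The log2 fold change in SMA vehicle against wildtype was 1.82 (SE 0.21, adjusted p = 3.48e-05), a 3.52-fold difference. Hoxd9, its neighbour and a partner of Hoxa9 and Hoxd10 in hindlimb motor neurons, read 518.9, 512.3, 454.4 and 432.3, then 1268, 1344.3, 1077.7 and 1350.7, and after ceftriaxone 669.2, 909.5, 894.9 and 1036.5. The order of the groups was that of Hoxd10, again with no overlap, and the log2 fold change was 1.36 (SE 0.12, adjusted p = 8.18e-06). Hoxd11, a more caudal gene, read 99.4, 127.6, 89.8 and 50.6 in wildtype, 174.8, 196.9, 347.6 and 183.5 in SMA vehicle and 131.5, 145.3, 227.4 and 183.9 in SMA cords after ceftriaxone. All SMA vehicle arrays were above all wildtype arrays, by 1.16 on the log2 scale (SE 0.27, adjusted p = 0.00475), and the SMA groups overlapped.

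The falls in cluster d were at Hoxd1 and at Hoxd8, the neighbour of Hoxd9. Hoxd1, at the 3′ end of the cluster and known from pain-sensing neurons, read 84.9, 57.9, 108.6 and 106 in wildtype, 21.2, 17.4, 22.2 and 9.1 in SMA vehicle and 82.6, 72.8, 56.9 and 39.9 in SMA cords after ceftriaxone. The SMA vehicle arrays were all below the others, and the log2 fold change against wildtype was -1.64 (SE 0.23, adjusted p = 1.65e-04). Hoxd8, which lies between Hoxd9 and Hoxd1 here, read 1294.4, 769, 1063.8 and 1074.7 in wildtype, 825, 802.6, 708.8 and 658.4 in SMA vehicle and 1101.4, 978.2, 920 and 1036.8 in SMA cords after ceftriaxone. The wildtype range overlapped that of SMA vehicle through wildtype array 2 alone, and the log2 fold change was -0.46 (SE 0.13, adjusted p = 0.0188). That call was lost without wildtype array 1 (adjusted p = 0.0536), SMA vehicle array 3 (0.0523) or SMA vehicle array 4 (0.0618), and with median centring (0.0727).

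In cluster a the called genes were Hoxa7, Hoxa9 and Hoxa10. Hoxa10, the cluster a paralog of Hoxd10 and like it a lumbar gene, read 331, 355.2, 263.3 and 266.7 in wildtype, 784.9, 937.9, 715.3 and 864 in SMA vehicle and 371.6, 457.8, 457.3 and 479.7 in SMA cords after ceftriaxone. The 3 groups did not overlap, and the log2 fold change in SMA vehicle was 1.40 (SE 0.12, adjusted p = 6.42e-06). Hoxa7, a gene of thoracic levels, read 426.3, 255.9, 426.1 and 494.8 in wildtype, 743.1, 772, 844 and 748.1 in SMA vehicle and 499, 470.7, 418.5 and 388.9 in SMA cords after ceftriaxone. SMA vehicle stood above both other groups, which overlapped, by 0.96 against wildtype (log2 scale, SE 0.16, adjusted p = 5.93e-04). Hoxa9 has 2 probe sets. One read 433.1, 444.3, 437.6 and 500.1 in wildtype, 626.3, 619.9, 616.5 and 615.7 in SMA vehicle and 532.3, 548.8, 616.5 and 624.2 in SMA cords after ceftriaxone, and its log2 fold change in SMA vehicle was 0.44 (SE 0.08, adjusted p = 8.48e-04). On this probe set both SMA groups were above wildtype. The other rose by 0.26 (SE 0.08, adjusted p = 0.0342) with overlapping arrays, and lost its call without wildtype arrays 1 or 4 or SMA vehicle arrays 1, 2 or 4, with adjusted p-values up to 0.106 without SMA vehicle array 2. Its call was also lost with quantile normalization, with no intensity trend, with only the groups compared and with replicate number as a block.

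In cluster b the called genes were Hoxb2, Hoxb3, Hoxb6 and Hoxb9. Hoxb4, Hoxb5 and Hoxb7, which lie among them, were not called. Hoxb4 gave log2 fold changes of 0.07 and 0.1 on 2 probe sets (adjusted p = 0.84 and 0.846). Hoxb5 gave 0.59 (adjusted p = 0.105) and Hoxb7 0.34 (adjusted p = 0.359). Hoxb3, a gene of hindbrain and neck levels, read 226.5, 148.4, 191.7 and 227.3 in wildtype, 426.1, 456.2, 514.8 and 496.3 in SMA vehicle and 256.7, 223.6, 179 and 200.1 in SMA cords after ceftriaxone. SMA vehicle stood apart from both other groups, with a log2 fold change of 1.20 against wildtype (SE 0.15, adjusted p = 5.40e-05). Hoxb9 read 574.7, 427.8, 497 and 535.7 in wildtype, 1081.8, 1717.5, 1390.7 and 993.2 in SMA vehicle and 663, 396.4, 444.7 and 419.4 in SMA cords after ceftriaxone. Its lowest SMA vehicle array was above every other array, and the log2 fold change was 1.30 (SE 0.19, adjusted p = 1.86e-04). Hoxb2, a hindbrain gene that stays on in the cord, read 557, 340.8, 471.8 and 555.8 in wildtype, 647.7, 734.5, 715 and 691.6 in SMA vehicle and 661.8, 571.3, 521.7 and 530.7 in SMA cords after ceftriaxone. The log2 fold change was 0.54 (SE 0.14, adjusted p = 0.00911). Hoxb6 read 899.4, 681.7, 1107.3 and 1017.2 in wildtype, 1233.3, 1306.8, 1400.1 and 1233 in SMA vehicle and 1188.7, 932, 895.7 and 920 in SMA cords after ceftriaxone, with a log2 fold change of 0.49 (SE 0.14, adjusted p = 0.0136). For both Hoxb2 and Hoxb6 the SMA vehicle arrays lay above all wildtype arrays, by a margin smaller than that of Hoxb3 or Hoxb9.

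In cluster c the called genes were Hoxc8 and Hoxc9. Hoxc9, which sets thoracic identity of motor neurons, read 216.1, 170.3, 214.3 and 257 in wildtype, 352.8, 369.4, 332.2 and 448.6 in SMA vehicle and 277.5, 296.2, 262 and 284.8 in SMA cords after ceftriaxone. The groups did not overlap, and the log2 fold change in SMA vehicle was 0.77 (SE 0.13, adjusted p = 5.53e-04). Hoxc8, which marks motor pools of the lower forelimb segments, read 1148.8, 585.9, 1183.4 and 1202.8 in wildtype, 1606.4, 2630.4, 1895.4 and 1446.5 in SMA vehicle and 1732.1, 1191.3, 936.9 and 633.4 in SMA cords after ceftriaxone. SMA vehicle arrays lay above all wildtype arrays, while the ceftriaxone arrays spanned both, and the log2 fold change was 0.89 (SE 0.30, adjusted p = 0.0409). The Hoxc8 call was lost without any 1 of 8 arrays: wildtype array 1 (0.0518), 2 (0.0837) or 3 (0.0506), array 1 (0.0551), 2 (0.12) or 3 (0.0848) of SMA vehicle, and array 2 (0.0528) or 3 (0.0534) of SMA ceftriaxone. It was also lost with no intensity trend, with replicate number as a block and with the Gapdh ratio as a covariate.

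**Figure D2:**
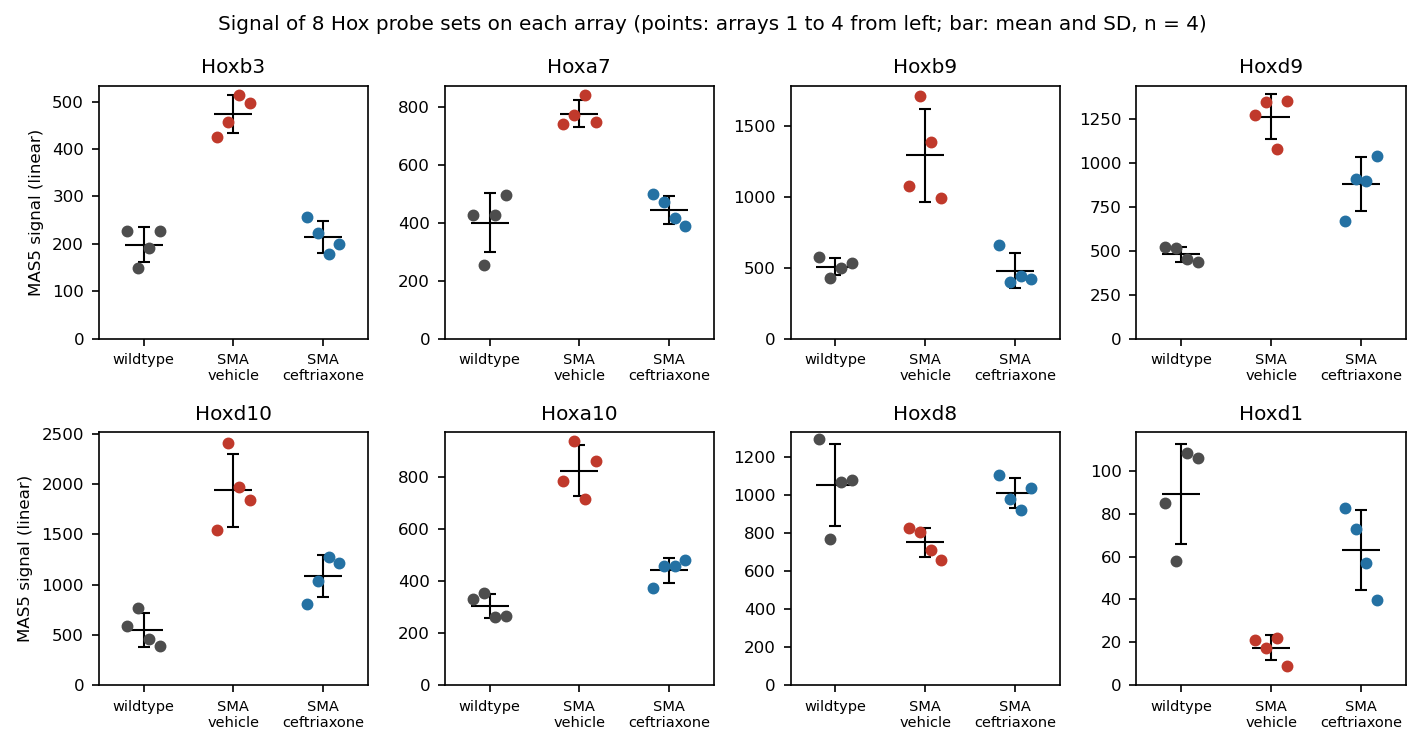
MAS5 signal (linear axis from 0) of 8 Hox probe sets on each array; points are arrays 1 to 4 of a group from left to right, and the bars give the mean and SD of 4 arrays. For Hoxd9, Hoxd10 and Hoxa10 the ceftriaxone arrays lie between the wildtype and the SMA vehicle arrays, and for Hoxb3, Hoxa7 and Hoxb9 they overlap the wildtype arrays.

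The 22 probe sets that did not pass included the genes with the widest spread between arrays. Hoxc4, a neck-level gene, read 534.5, 150.1, 383.1 and 379.9 in wildtype and 371.8, 607, 1324.2 and 247.4 in SMA vehicle cords, and its log2 fold change of 0.64 had a standard error of 0.47 (adjusted p = 0.346). Hoxa5, which phrenic motor neurons need, read 1171.7, 554, 1008.6 and 1182.6 in wildtype and 1066.3, 1049, 1808 and 1025.7 in SMA vehicle cords (log2 fold change 0.35, SE 0.24, adjusted p = 0.31). In Hoxa2 and Hoxb5 all SMA vehicle arrays lay above all wildtype arrays, with log2 fold changes of 0.54 and 0.59 and adjusted p-values of 0.0632 and 0.105. The probe sets of Hoxc6, the forelimb gene, disagreed in sign: the estimates were 0.41 and 0.43 for 2 of them and -0.73 for another, with adjusted p-values of 0.311, 0.353 and 0.207. The most caudal genes, Hoxa13, Hoxb13, Hoxc13, Hoxd12 and Hoxd13, were dim and not called. Hoxd13 read between 1.5 and 17.4 on all arrays, Hoxd12 between 1.6 and 13.2, and Hoxa13 between 12.9 and 34.1. Hoxb13 and Hoxc13 had the widest errors, with log2 fold changes of -0.65 (SE 0.77) and 0.91 (SE 0.86), so a change of the size seen in Hoxd10 could have been missed in them.

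The comparison of SMA ceftriaxone against SMA vehicle asks what the drug changed. After ceftriaxone, 7 Hox probe sets were lower than in SMA vehicle cords, 2 were higher and 28 did not pass the test. The 7 lower were Hoxa7, Hoxa10, Hoxb3, Hoxb9, Hoxc9, Hoxd9 and Hoxd10, and the 2 higher were Hoxd1 and Hoxd8. This comparison shares the SMA vehicle arrays with the one above, so opposite signs in the 2 comparisons are not independent, and each comparison's values are given side by side without a test of their relation. The 9 calls are 24.3% of the Hox probe sets, where 22.4% of all probe sets were called, 11.5% higher and 10.8% lower. The share of Hox probe sets called was thus near that of the array as a whole. Among those above the 40th percentile it was 8 of 20, or 40%, where it was 32.2% over all such probe sets. The median Hox log2 fold change was -0.29, where the median over all probe sets was 0.02.

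Hoxb9 and Hoxb3 had the largest falls among the Hox probe sets. Hoxb9 averaged 1296 ± 329 (SD, n = 4) in SMA vehicle and 480.9 ± 123 in SMA cords after ceftriaxone, a log2 fold change of -1.40 (SE 0.19, adjusted p = 2.89e-04). Hoxb3 averaged 473.4 ± 39.9 and 214.8 ± 33.3, a log2 fold change of -1.09 (SE 0.15, adjusted p = 2.97e-04). In both, the ceftriaxone arrays overlapped the wildtype arrays, whose means were 508.8 for Hoxb9 and 198.5 for Hoxb3. Hoxa7 fell by 0.79 on the log2 scale (SE 0.16, adjusted p = 0.00405) from 776.8 ± 46.5 to 444.3 ± 49.7, beside 400.8 ± 102 in wildtype. Among the other caudal genes, Hoxa10 fell by 0.88 (SE 0.12, adjusted p = 4.08e-04), Hoxd10 by 0.83 (SE 0.21, adjusted p = 0.0116) and Hoxd9 by 0.53 (SE 0.12, adjusted p = 0.00906). The Hoxd10 call was lost with log2 Xist as a covariate (adjusted p = 0.0632).

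Hoxd1 was higher after ceftriaxone, at 63.05 ± 18.7 against 17.47 ± 5.95 in SMA vehicle cords (log2 fold change 1.23, SE 0.23, adjusted p = 0.00244). The SMA vehicle signals of Hoxd1 lie near the offset of 16, which sets the size of its changes. With offsets of 1 and 64 this rise was 1.81 and 0.63, and the fall in SMA vehicle against wildtype was -2.32 and -0.90, each still called. The same comparison gave 0.43 for Hoxd8 (SE 0.13, adjusted p = 0.038), from 748.7 ± 78.5 to 1009 ± 77.8. The Hoxd8 call was lost without SMA vehicle arrays 2, 3 or 4 or SMA ceftriaxone arrays 1, 2 or 4, with adjusted p-values from 0.0521 without SMA vehicle array 2 to 0.112 without SMA vehicle array 4. Hoxc9 fell by 0.40 (SE 0.13, adjusted p = 0.0429), and that call was lost without any 1 of 9 arrays: wildtype 1 or 3, SMA vehicle 1, 2 or 4, or any ceftriaxone array. Without them the Hoxc9 adjusted p ran from 0.0538 (without wildtype array 1) to 0.136 (without SMA vehicle array 4). The Hoxd8 and Hoxc9 calls were also lost with median centring and with Xist or the Gapdh ratio as a covariate. That of Hoxd8 was lost with no intensity trend too, and that of Hoxc9 with quantile normalization. Near the threshold, Hoxb6 gave -0.40 (SE 0.14, adjusted p = 0.0532), Hoxb5 -0.69 (SE 0.26, adjusted p = 0.0754) and Hoxc8 -0.80 (SE 0.30, adjusted p = 0.0793). Hoxd11 gave -0.34 (adjusted p = 0.419), and the 2 probe sets of Hoxa9 gave -0.10 (adjusted p = 0.436) and 0.06 (adjusted p = 0.697).

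In the comparison of SMA ceftriaxone against wildtype, 3 Hox probe sets were higher in the ceftriaxone cords and none was lower: Hoxd9, Hoxd10 and 1 probe set of Hoxa9. They are 8.11% of the Hox probe sets, where 2.02% of all probe sets were called, 1.55% higher and 0.464% lower. Among the probe sets above the 40th percentile the called were 3 of 20 for Hox, or 15%, and 2.95% over all. At an adjusted p under 0.05 no Hox probe set fell in this limma test. Hoxd9 averaged 877.5 ± 153 (SD, n = 4) against 479.5 ± 42.8 in wildtype (log2 fold change 0.84, SE 0.12, adjusted p = 0.00645). Hoxd10 averaged 1084 ± 212 against 550.4 ± 168 (log2 fold change 0.98, SE 0.21, adjusted p = 0.0333). Hoxa9 averaged 580.4 ± 46.7 against 453.8 ± 31.2 (log2 fold change 0.34, SE 0.08, adjusted p = 0.0433). Hoxa10 (0.52, adjusted p = 0.0526), Hoxc9 (0.37, adjusted p = 0.169) and Hoxd11 (0.83, adjusted p = 0.145) were not called. In 7 Hox probe sets all ceftriaxone arrays lay above all wildtype arrays, and all 7 were of paralogs 9 to 11. Over the whole array, 5.96% of probe sets had such an order, and 3.04% had the opposite one, which 0 of the 37 Hox probe sets showed.

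The calls of this comparison were the least firm. Hoxd9 kept its call under 22 of 24 alternatives, and lost it when only the 2 groups were fitted and with Xist as a covariate (adjusted p = 0.0746). Hoxd10 kept its call under 12 of 24, and lost it without wildtype arrays 3 or 4, SMA vehicle arrays 3 or 4 or ceftriaxone arrays 2, 3 or 4 (adjusted p from 0.0528 without SMA vehicle array 4 to 0.111 without ceftriaxone array 3). Hoxa9 kept its call under 7 of 24, and lost it without any array other than wildtype array 2 or ceftriaxone array 1 (adjusted p up to 0.137, without ceftriaxone array 3). The Hoxd10 and Hoxa9 calls were also lost with no intensity trend, with only the 2 groups fitted and with replicate number as a block. Xist or the Gapdh ratio as a covariate removed both as well. Xist was above 1000 on all 4 ceftriaxone arrays and on 1 of the 4 wildtype arrays, and in the arrays with the Y-linked Eif2s3y below 100 (1 wildtype, 2 SMA vehicle, 4 ceftriaxone) no Hox probe set was called, where 57 of all probe sets were, and the median Hox estimate was 0.01, with the lone wildtype array assumed to vary like the others.

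**Figure D3:**
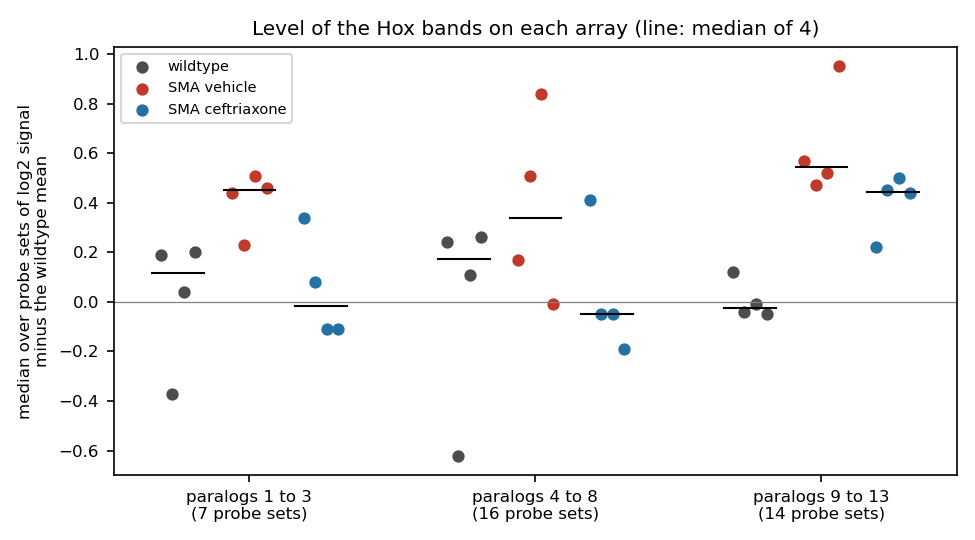
Median over the probe sets of each paralog band of log2(signal + 16) on 1 array minus the wildtype mean; each point is 1 array and each line the median of the 4 arrays of a group. For paralogs 9 to 13 the SMA vehicle arrays lie between 0.47 and 0.95 and the ceftriaxone arrays between 0.22 and 0.50, above all wildtype arrays, while for paralogs 4 to 8 the groups overlap.

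The bands are described array by array. For paralogs 9 to 13, the band's median difference from the wildtype mean was 0.57, 0.47, 0.52 and 0.95 on the SMA vehicle arrays and 0.22, 0.45, 0.50 and 0.44 on the ceftriaxone arrays, and between -0.05 and 0.12 on the wildtype arrays. For paralogs 4 to 8 it was 0.17, 0.51, 0.84 and -0.01 on the SMA vehicle arrays, 0.41, -0.05, -0.05 and -0.19 on the ceftriaxone arrays and 0.24, -0.62, 0.11 and 0.26 on the wildtype arrays. In the middle band the arrays of the 3 groups overlapped. For paralogs 1 to 3 it was 0.44, 0.23, 0.51 and 0.46 on the SMA vehicle arrays, 0.34, 0.08, -0.11 and -0.11 on the ceftriaxone arrays and 0.19, -0.37, 0.04 and 0.20 on the wildtype arrays. So in this band, as in the caudal one, SMA vehicle lay above wildtype on every array, while the ceftriaxone arrays overlapped both. Among the brighter probe sets alone, the 2 of paralogs 1 to 3 stood at 0.75 to 0.95 on the SMA vehicle arrays. The 9 of paralogs 4 to 8 stood at 0.13 to 0.93 there, and the 9 of paralogs 9 to 13 at 0.88 to 1.15. On the wildtype arrays the 3 ranges were -0.41 to 0.21, -0.67 to 0.31 and -0.05 to 0.11. After ceftriaxone they were 0.01 to 0.42, -0.18 to 0.38 and 0.36 to 0.58. All these medians are a description of the members on each array, with no test.

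Within groups, many probe sets of the middle band deviated together on single arrays. On wildtype array 2 all 16 probe sets of paralogs 4 to 8 lay below their group mean, with a median deviation of -0.62, while the 14 of paralogs 9 to 13 had a median deviation of -0.04. Of the 7 of paralogs 1 to 3, 1 lay above the group mean there, with a median of -0.37. On ceftriaxone array 1 all 16 lay above the group mean, with a median of 0.36, and 1 of the 14 caudal ones did, with a median of -0.16. Of paralogs 1 to 3, 6 of 7 lay above it, with a median of 0.25. On SMA vehicle array 3, 13 of 16 lay above (median 0.19), and on SMA vehicle array 4, 2 of 16 did (median -0.29). On ceftriaxone arrays 3 and 4, 11 of the 14 caudal probe sets lay above the group mean (medians 0.08 and 0.09), and 5 and 3 of the 16 middle ones. Probe sets on 1 array share its RNA sample, so these counts describe arrays and are not replicates of a group. The widest single deviation among the brighter probe sets was in Hoxc4, at 1.31 on SMA vehicle array 3.

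**Figure D4:**
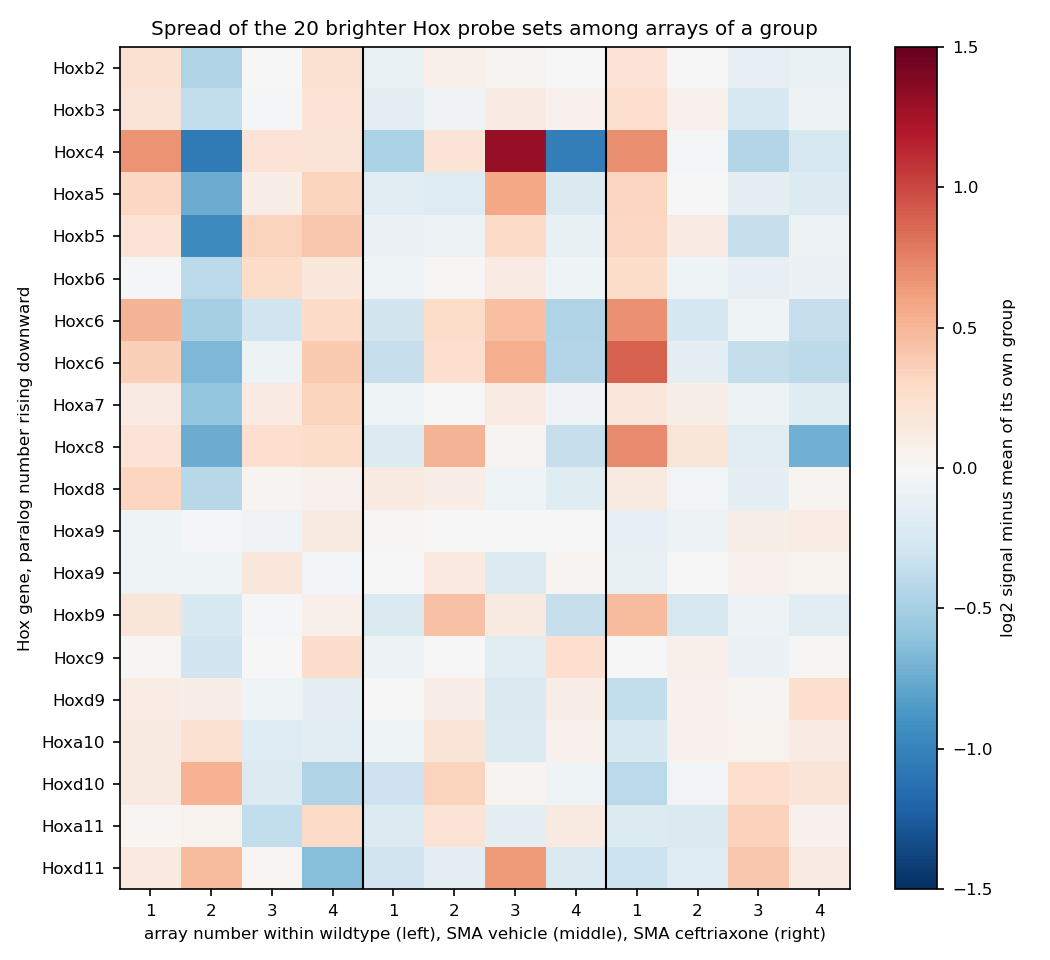
Deviation of log2(signal + 16) from the mean of its own group, for the 20 Hox probe sets above the 40th percentile (rows, paralog number rising downward) on the 12 arrays (columns); red is above and blue below the group mean. Wildtype array 2 is blue from Hoxb2 to Hoxd8, ceftriaxone array 1 is red over the same rows and blue at Hoxd9, Hoxa10, Hoxd10, Hoxa11 and Hoxd11, and the darkest cell is Hoxc4 on SMA vehicle array 3 at 1.31.

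Without wildtype array 2, which also carried the thymus genes, 12 Hox probe sets rose and 2 fell in SMA vehicle against wildtype (37.8%, where 38.9% of all probe sets were called), with a median log2 fold change of 0.25. All 8 caudal calls stood, with a band median of 0.55, and the median of paralogs 4 to 8 was 0.20. In ceftriaxone against vehicle 2 were higher and 11 lower (35.1%, where 32.3% of all probe sets were called). In ceftriaxone against wildtype 4 were higher (10.8%, where 5.09% of all were called), all of paralogs 9 to 13, whose median was 0.32, while that of paralogs 4 to 8 was -0.18.

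The cofactors with which Hox proteins bind DNA were higher as well. Of the 12 probe sets for 8 measured genes of the Pbx, Meis and Pknox families, 8 rose and none fell in SMA vehicle against wildtype (66.7%, where 31.3% of all probe sets were called and 16.5% rose), with a median log2 fold change of 0.69. After ceftriaxone 7 were lower and none higher than in SMA vehicle (58.3%, where 22.4% of all were called and 10.8% were lower), with a median of -0.65. Meis2 read 598.4, 426.1, 459.6 and 493.9 in wildtype, 1445.4, 1341.6, 1583.4 and 1752.4 in SMA vehicle and 867, 770.2, 871 and 741.7 in SMA cords after ceftriaxone. The 3 groups of Meis2 arrays did not overlap, and the log2 fold changes were 1.60 in SMA vehicle against wildtype (SE 0.11, adjusted p = 1.93e-06) and -0.90 in ceftriaxone against vehicle (SE 0.11, adjusted p = 2.07e-04). Meis1 rose by 1.39 (adjusted p = 1.35e-05), Pbx3 by 1.11 (adjusted p = 2.10e-05) and Pknox2 by 0.92 (adjusted p = 4.52e-04). After ceftriaxone, Meis1 was lower by 0.90 (adjusted p = 6.49e-04), Pbx3 by 0.88 (adjusted p = 2.94e-04) and Pknox2 by 0.68 (adjusted p = 0.00597).

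Genes of retinoic acid, of chromatin and of other axial factors were called at shares near or below that of the array, 31.3% in SMA vehicle against wildtype. Of 19 retinoic acid probe sets, 6 rose and 1 fell (36.8%), with a median of -0.02. Crabp1, which binds retinoic acid in the cytosol, rose by 1.85 (adjusted p = 1.93e-06). Aldh1a2, the embryo's main retinoic acid synthesis enzyme, rose by 1.04 (adjusted p = 2.92e-04), and the receptor Rxrg by 0.95 (adjusted p = 4.61e-04), while the synthesis enzyme Aldh1a1 fell by 1.97 (adjusted p = 9.25e-05). Of the Polycomb genes, 5 of 41 probe sets rose and 6 fell (26.8%), with a median of -0.09. Their summed signal was 26900 on wildtype array 2 and 19340 to 19940 on the other wildtype arrays. Phc2, a subunit of Polycomb complex PRC1, fell on 2 probe sets by 0.72 and 0.86 (adjusted p = 9.66e-06 and 1.97e-05), Cbx6 fell by 1.06 (adjusted p = 3.04e-05), and Rnf2, the ubiquitin ligase of that complex, rose by 0.96 on 1 probe set (adjusted p = 3.62e-04). Of the trithorax genes and H3K27 demethylases, 4 of 12 rose and none fell (33.3%, where 16.5% of all probe sets rose). They were Wdr5 on 2 probe sets (0.66 and 0.85, adjusted p = 4.26e-04 and 9.66e-04), Ash2l (0.65, adjusted p = 0.00509) and Dpy30 (0.39, adjusted p = 0.00524). Of the other axial factors, 3 of 19 rose (15.8%): Gbx2, a gene of the hindbrain border (1.73, adjusted p = 2.02e-05), and Zfp503 on 2 probe sets (1.34 and 0.91, adjusted p = 3.54e-05 and 0.00121). The axial list summed to 6488 on wildtype array 2 and to 3311 to 3643 on the other wildtype arrays. What that array did to the Polycomb and axial shares was not tested. In ceftriaxone against vehicle, 22.4% of all probe sets were called and 10.8% were lower. The counts were 2 higher and 5 lower of 19 for retinoic acid (36.8%) and 0 and 4 of 12 for trithorax (33.3%), both above the called share. They were 3 and 3 of 41 for Polycomb (14.6%) and 0 and 3 of 19 for the axial factors (15.8%), both below it.

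Factors listed for motor neuron subtypes were higher more often than lower. Other cord cells express some of them too, and their link to the Hox proteins was not tested. Of 38 probe sets for 19 genes, 18 rose and 1 fell in SMA vehicle against wildtype (50%, where 31.3% of all probe sets were called), with a median of 0.54. Lhx1, of the lateral limb-innervating motor column and of interneurons, rose by 2.07 (adjusted p = 1.03e-05), and Ebf2 by 1.37 and 1.20 on 2 probe sets (adjusted p = 3.08e-06 and 9.24e-06). Nkx6-2, a progenitor gene that mature oligodendrocytes also express, fell by 2.59 (adjusted p = 2.66e-05). After ceftriaxone 1 was higher and 11 lower (31.6%, where 22.4% of all were called), with a median of -0.38. Homeobox genes of other cord neurons showed 10 higher and 1 lower of 28 (39.3%), with a median of 0.44, among them the dorsal interneuron genes Lbx1 (1.32, adjusted p = 1.09e-05) and Lhx5 (1.45, adjusted p = 3.95e-05) and Pax8 (1.06, adjusted p = 9.81e-05). After ceftriaxone, 1 of these 28 was higher and 6 were lower (25%), a share near that of the array.

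The flanks of the clusters moved in mixed ways. The nearest measured genes on each side, 24 genes with 42 probe sets, gave 10 higher and 7 lower in SMA vehicle against wildtype with a median of 0.09. Their called share, 40.5%, equals that of the Hox probe sets, where 31.3% of all probe sets were called. In ceftriaxone against vehicle 5 were higher and 9 lower (33.3%, where 22.4% of all were called), with a median of -0.13. Beside Hoxd13, Evx2 gave -0.25 (adjusted p = 0.524) in the first of these. Beside Hoxd1, Mtx2, a mitochondrial import gene, rose by 0.35 (adjusted p = 0.00261), and behind it Nfe2l2, the antioxidant response factor, fell by 1.64 (adjusted p = 3.91e-06). Beside Hoxa13, Evx1 gave 0.22 (adjusted p = 0.68). Beside Hoxb1, Snx11 rose by 0.56 (adjusted p = 7.76e-04).

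Markers of other cells moved with the groups. Of 29 immature neuron probe sets, 24 rose in SMA vehicle against wildtype (82.8%, where 31.3% of all probe sets were called). Against SMA vehicle, 23 were lower after ceftriaxone (79.3%, where 22.4% of all were called). Summed signals were 45650 to 48964 in wildtype, 88565 to 110136 in SMA vehicle and 48425 to 61112 in SMA cords after ceftriaxone. Of 23 mature oligodendrocyte probe sets, 19 fell (82.6%) and 19 were higher after ceftriaxone (82.6%), with sums of 200581 to 304363, 82600 to 144377 and 236586 to 261935. Of 16 skeletal muscle probe sets, 9 rose and 1 fell (62.5%). After ceftriaxone 12 were lower and 1 higher (81.2%), and the sums were 1355 to 3264, 3430 to 7212 and 1058 to 1650. The defining muscle gene Acta1 averaged 375, 2330 and 212 in the 3 groups. Muscle, like cord, is a tissue whose Hox genes reflect body level. With the summed muscle signal as a covariate, an alternative added after seeing the data, 6 Hox probe sets were called in SMA vehicle against wildtype and none in ceftriaxone against vehicle, where 1960 and 0 of all probe sets were. With the summed immature neuron signal as a covariate none was called in either, where 1 and 0 of all probe sets were. In both comparisons neither sum overlapped between the groups, so these fits cannot tell the sums and the groups apart.

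Lists of other tissues and cell types were measured in the same way. Of 20 probe sets for brain regions rostral to the cord, 2 rose and 1 fell in SMA vehicle against wildtype (15%, where 31.3% of all were called). Their median log2 fold change was -0.12, and 7 of the 20 estimates were positive. Their sums were 473 to 636 in wildtype, 821 to 1106 in SMA vehicle and 650 to 738 in SMA cords after ceftriaxone. These sums include Neurod6, a forebrain neuron gene, which averaged 104, 570 and 190. Of 13 probe sets of vertebral cartilage and bone, 2 rose and 3 fell (38.5%), with sums of 793 to 1094, 642 to 795 and 901 to 1019. Of 23 of meninges and connective tissue, 3 rose and 8 fell (47.8%). Of 10 of dorsal root ganglion and nerve root, 1 fell, Pmp22 (10%). Their sums were 7799 to 11608 in wildtype, 2200 to 5839 in SMA vehicle and 4586 to 10260 in SMA cords after ceftriaxone. Of 15 of thymus and T cells 1 fell, Thy1 (6.67%), with thymus sums of up to 53734 in wildtype, on array 2. Mature neurons gave 11 higher and 2 lower of 21 (61.9%, near the 62.5% of muscle), with sums of 65310 to 95766 on the wildtype arrays, 89017 to 98606 on those of SMA vehicle and 80707 to 91113 after ceftriaxone. Astrocytes gave 4 higher and 8 lower of 23 (52.2%), with sums of 77811 to 119090, 70466 to 82298 and 106594 to 125755. In ceftriaxone against vehicle, 22.4% of all probe sets were called. There 14 of the 23 astrocyte probe sets were higher and none lower (60.9%). Meninges gave 7 higher and 3 lower (43.5%), and mature neurons 1 higher and 6 lower (33.3%). The counts there were 3 higher and 2 lower for cartilage and bone (38.5%) and 1 and 1 for brain regions (10%). They were 1 and 1 for dorsal root ganglion (20%) and 1 and 0 for thymus (6.67%). The part of these cell types in the Hox differences was not tested beyond the covariates above.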

How the data were processed

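Spinal cord RNA of 12 mice was hybridised, 1 mouse per array, after a single amplification to biotin-labelled cRNA, per the labels' protocols. The authors deposited signal intensity on a linear scale, made and scaled with MAS5 per the submitters' processing notes, whose version was not given in the sources used here. The 2% trimmed mean was 700.2 to 700.3 on all arrays, and the median log2 value of the deposited signal, with an offset of 16, was 7.9 to 8.14. The cord was from perfused, fixed mice, and detection calls were not used here.

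Groups came from the labels. Probe sets were named through a platform annotation of 2016, with symbols updated through gene identifiers. After 64 control probe sets were removed, 22626 probe sets with no filter were fitted as log2(signal + 16) in limma 3.58.1 under R 4.3.3 (1 mean per group over 12 arrays, eBayes with a trend on intensity, 9 residual degrees of freedom). P-values are two-sided with Benjamini-Hochberg adjustment over all of them, and a call is an adjusted p under 0.05. The median standard error was 0.21 for Hox probe sets and 0.16 for all. The scripts were tested on simulated data. Nothing says that the mice of a group came from separate litters.

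Hox probe sets called in either main comparison without overlap between the arrays were given array by array. Of the others, some were given by estimate or range and the rest only within the counts and medians. Of each list at most the 4 probe sets of smallest p were named. Slc5a7, Slc6a5 and Mnx1 were named besides, as checks of the tissue. Of the uncalled genes, Hoxc4, Hoxa5, Hoxa2, Hoxb4, Hoxb5, Hoxb7 and the genes of paralogs 12 and 13 were named after their values were seen. The members, the gene lists and the tests were chosen with earlier results of these data known. Promoter windows and the neighbours of the clusters came from RefSeq tables; 22 Hox genes had a promoter window.

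Arrays of the same replicate number did not deviate together (12 pairs, correlations -0.14 to 0.13), so the numbers were not taken as pairs. Alternatives covered the offset, scaling, filter, variance model, array weights, groups fitted, replicate block, Xist, Gapdh ratio and each array left out.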

Additional observations from a re-analysis of the deposited data

Results flagged for a closer look

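A Dixon test for 1 array far from the other 3 of its group picked 16 of 111 sets of 4 Hox values, which is 14.4%, where chance gives about 1 in 20. Wildtype array 2 was low in Hoxa4 (34.3, others 75.4 to 83.5), in Hoxc8 (585.9, others 1148.8 to 1202.8) and in 1 probe set of Hoxc6 (22.3, others 61.7 to 67.9). That Hoxc6 probe set was also low on SMA ceftriaxone array 2 (8.3, others 67.6 to 76.9), as was Hoxb7 (9.5, others 33.1 to 36.1). SMA ceftriaxone array 1 was high in Hoxb6 (1188.7, others 895.7 to 932), in Hoxc5 (64.2, others 4.8 to 11.8) and in another probe set of Hoxc6 (694.6, others 277.2 to 336.5). SMA vehicle array 3 was high in Hoxa5 (1808, others 1025.7 to 1066.3), Hoxb5 (651.9, others 490.8 to 500.5) and Hoxd11 (347.6, others 174.8 to 196.9).

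The other single arrays were spread over the groups. Hoxa2 read 107.9 on SMA vehicle array 1 (others 99.1 to 100.4), and Hoxb13 read 268 on SMA vehicle array 4 (others 1.8 to 24). The probe sets of Hoxa9 read 500.1 on wildtype array 4 (others 433.1 to 444.3) and 1769 on wildtype array 3 (others 1487.8 to 1522.3). Hoxd12 read 4.9 on wildtype array 3 (others 1.6 to 1.7), a signal at the bottom of the array's range.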

How the results depend on the processing

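No Hox call changed its sign under the alternatives chosen at the outset. Under all of those, 12 of 15 calls stood in SMA vehicle against wildtype, 6 of 9 in ceftriaxone against vehicle and 0 of 3 in ceftriaxone against wildtype. Leaving out each array in turn gave 13 to 15 calls and a median of 0.25 to 0.46 in the first, 7 to 13 calls and a median of -0.38 to -0.18 in the second, and 1 to 4 calls and a median of -0.04 to 0.19 in the third. Over all probe sets those fits gave 5844 to 8803, 3649 to 7316 and 116 to 1151 calls, where the main fit gave 7082, 5059 and 456. With the replicate block the Hox calls were 13, 9 and 1, where 6646, 4500 and 233 of all probe sets were called. The replicate numbers do not pair the mice.

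The median of the first comparison was 0.62 above the 40th percentile of signal and 0.57 above the 60th, and that of the second was -0.48 above the 60th, where dim probe sets are left out. The third comparison, with 3 calls, had 1 call with no intensity trend, 5 with array weights, 0 with only its 2 groups fitted, 0 with Xist and 1 with the Gapdh ratio as a covariate. Over all probe sets the calls went from 456 to 283, 1147, 44, 48 and 142 in the same order. The cause of these shifts was not tested.

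Alternatives added after seeing the data moved more. With summed muscle signal as a covariate the calls were 6, 0 and 1, where 1960, 0 and 595 of all probe sets were called. The median of the second comparison was 0.02 there. With summed immature neuron signal the calls were 0, 0 and 1, where 1, 0 and 149 of all probe sets were called. The medians of the first and second comparisons were 0.09 and -0.09 there. In that fit 2 calls turned their sign: Hoxc8 went to -0.01 in the first and Hoxd8 to -0.02 in the second. Neither sum overlapped between the groups of the first or the second comparison, so these fits cannot tell sum and group apart there. In the arrays with the Y-linked Eif2s3y above 100 (3 wildtype, 2 SMA vehicle) the first comparison gave 7 calls among the 37 Hox probe sets. There 1571 of all 22626 probe sets were called. The Hox median was 0.58, where that over all probe sets was -0.03. In those below 100 (1 wildtype, 2 SMA vehicle, 4 ceftriaxone) it gave 8 calls and 0.19, with the lone wildtype array assumed to vary like the others, the second gave a median of -0.10 and the third 0 calls. Precision is limited by 4 arrays a group, and 17 of 37 Hox probe sets lie in the dim part of the array.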
